A study of Mus musculus with 12 samples.

Results

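The collagen genes were taken as the protein-coding rows of the deposited gene table whose symbol is Col, a number, the letter a and a number, which gave 44 of its 56748 genes. They were measured by RNA sequencing of kidney from male mice aged 8 to 12 weeks, in 4 groups of 3 libraries. The cKO IR group carries a Krt20 conditional knockout in renal proximal tubular cells and had both renal pedicles clamped for 30 min, with collection 24 h after release. The WT IR group is wild type with the same clamping. The cKO sham and WT sham groups are the same genotypes operated on in the same way without clamping, so the shams carry the surgery and the anesthesia too. The labels name neither the promoter that drives the deletion nor whether each library is a separate mouse. The p-values below therefore measure the spread between libraries, which may be technical. The extraction text of the labels speaks of retinas, while every sample is labelled kidney.

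Collagens are proteins of 3 chains wound into a triple helix, and their genes fall into classes by the structure they build. Fibrillar collagens (types I, III and V) form the banded fibrils of the interstitium. Type IV collagen is the sheet-like network of basement membranes: the chains encoded by Col4a1 and Col4a2 occur in nearly all of them, while those of Col4a3, Col4a4 and Col4a5 form the network of the mature glomerular basement membrane and are the chains mutated in Alport syndrome. Other collagens decorate fibrils, form beaded microfilaments, span the cell membrane or, like type XVIII, sit in basement membranes as proteoglycans. In a bulk sample of tissue, fewer cells of a type and less RNA per cell cannot be told apart.

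At 24 h the classes did not move as blocks. Within the basement membrane class, Col4a3 and Col4a4 fell in IR kidneys of both genotypes to between 0.370 and 0.542 of the sham mean, while each IR library exceeded the sham libraries of its genotype in Col4a1, which was called in WT. The difference between genotypes in that effect was not called (-0.22, SE 0.47, limma adjusted p = 0.875). Among the fibrillar genes Col1a1 was called in WT, where its mean was 5.43 times that of sham and 3.20 times without WT IR 3, and in cKO its mean was 2.67 times that of sham and 1.09 times without cKO IR 3. The WT calls of both genes were lost in 6 of 20 alternatives. Among the other classes, Col18a1 rose in both genotypes (2.63-fold in cKO and 2.16-fold in WT) and Col14a1 fell in both (to 0.156 of sham in cKO and 0.339 in WT, and without replicate 3 of the IR group to 0.0547 in cKO and 0.129 in WT), with a WT call lost in 12 of 20 alternatives. No collagen gene passed the test between genotypes, either after IR or in sham kidneys.

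Levels are FPKM, the authors' values per length of gene and size of library, so that levels of different genes are compared per length. The tests are limma's, on log2(FPKM + 1), over the 12868 genes averaging 1 FPKM or more across the 12 libraries, with Benjamini-Hochberg adjustment and a call at an adjusted p under 0.05; fold changes on that scale understate the change of low genes. The filter kept 21 of the 44 collagen genes, which are 7 of 11 fibrillar, 5 of 6 basement membrane and 9 of 27 others. The lowest mean kept was 1.24 FPKM (Col5a3) and the highest left out was 0.564 FPKM (Col6a6). Col5a3 and Col12a1 passed the filter through their IR libraries, since their sham means were between 0.596 and 0.710 FPKM, whereas Col6a6 exceeded 1 FPKM in mean in cKO sham kidneys only and was left out.

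The libraries held 13187531 to 15962303 reads in genes, recovered from the FPKM values, and correlated at Pearson's r of 0.9445 to 0.9854 on the log2 scale within a group. The targeted gene, Krt20, stood at 28.2, 35.6 and 47.0 FPKM in cKO IR libraries and at 84.0, 64.9 and 59.9 FPKM in WT IR libraries. It was at or under 0.157 FPKM in all sham libraries. The 8 proximal tubule markers summed to 492 to 801 FPKM in cKO IR and 723 to 1808 in WT IR, against 3082 to 3705 in cKO sham and 3582 to 4143 in WT sham, and 7 of the 8 were called lower in each genotype. WT IR 2 had the highest proximal tubule sum of the IR libraries (1808 FPKM). Its sum of injured tubule markers was the lowest of them, at 6114 FPKM, against 10430 in WT IR 1 and 9974 in WT IR 3. The lowest correlation within a group, 0.9445, was that of WT IR 2 with WT IR 3. Of the injured tubule markers 5 of 6 were called higher in cKO and 6 of 6 in WT, of the tested neutrophil markers 4 of 4 in cKO and 3 of 4 in WT, and of the tested macrophage markers 1 of 6 was called higher and 1 lower in each genotype. Over all tested genes, 27.8% were called higher in cKO and 22.6% in WT, and 23.1% lower in cKO and 19.5% in WT. Among the markers, 3 of the 4 tested neutrophil markers and 4 of the 6 injured tubule markers averaged under 1 FPKM in both sham groups and passed the filter through their IR libraries. Replicate 3 of both IR groups stood apart for collagens. It was the highest library of its group for 17 of the 21 tested collagen genes in cKO IR and for 16 in WT IR, where replicate 3 was the highest for 30.0% of all tested genes in cKO IR and 32.8% in WT IR; 15 collagen genes were highest in both, against 15.5% of all genes. The 6 exceptions were Col18a1, Col4a3, Col4a4, Col4a5, Col16a1 and Col27a1. In the sham groups too, 1 library was the highest for most collagens. It was cKO sham 2 for 16 of the 21 (30.7% of all tested genes) and WT sham 1 for 13 (27%). By size, the summed collagen FPKM was 659 in cKO IR 3 and 489 in WT IR 3. It spanned 293 to 337 in cKO sham and 226 to 258 in WT sham libraries. Values without both IR replicates 3 are given below for the genes they moved most. That setting was chosen after the data were seen. It takes away the highest IR values of most collagens, so its lower differences and smaller spread follow in part from the choice.

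RefSeq start regions of build GRCm38.p6 (250 bases before to 50 after the start) matched 35 of the 44 genes, and 4 genes are printed: Col4a1 and Col4a2 because they lie head to head and encode partner chains, Col4a4 because it fell, and Col18a1, in both of its annotated windows, because it rose. Capitals mark the CCAAT box (CCAAT, or ATTGG on the other strand) and the GC box (GGGCGG, or CCGCCC on the other strand).

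Col4a1 (chr8:11312777-11313076, minus strand): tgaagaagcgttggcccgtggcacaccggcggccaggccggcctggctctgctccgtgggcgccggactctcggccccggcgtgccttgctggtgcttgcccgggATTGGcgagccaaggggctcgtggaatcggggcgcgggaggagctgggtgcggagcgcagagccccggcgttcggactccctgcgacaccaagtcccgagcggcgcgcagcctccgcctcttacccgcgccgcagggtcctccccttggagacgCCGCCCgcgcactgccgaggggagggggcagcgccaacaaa

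Col4a2 (chr8:11312555-11312854, plus strand): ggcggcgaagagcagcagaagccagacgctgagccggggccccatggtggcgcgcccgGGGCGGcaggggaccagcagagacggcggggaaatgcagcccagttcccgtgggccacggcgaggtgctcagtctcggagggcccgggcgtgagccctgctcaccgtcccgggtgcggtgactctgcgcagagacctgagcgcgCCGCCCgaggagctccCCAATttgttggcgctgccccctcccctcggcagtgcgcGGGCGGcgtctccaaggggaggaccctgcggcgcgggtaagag

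Col4a4 (chr1:82586800-82587099, minus strand): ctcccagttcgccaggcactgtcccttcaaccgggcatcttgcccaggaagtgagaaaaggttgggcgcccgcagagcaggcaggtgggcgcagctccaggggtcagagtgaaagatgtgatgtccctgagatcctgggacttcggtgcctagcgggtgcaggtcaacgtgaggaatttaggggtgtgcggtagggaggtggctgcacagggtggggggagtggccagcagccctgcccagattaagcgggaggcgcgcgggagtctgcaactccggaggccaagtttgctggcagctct

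Col18a1, first window (chr10:77113656-77113955, minus strand): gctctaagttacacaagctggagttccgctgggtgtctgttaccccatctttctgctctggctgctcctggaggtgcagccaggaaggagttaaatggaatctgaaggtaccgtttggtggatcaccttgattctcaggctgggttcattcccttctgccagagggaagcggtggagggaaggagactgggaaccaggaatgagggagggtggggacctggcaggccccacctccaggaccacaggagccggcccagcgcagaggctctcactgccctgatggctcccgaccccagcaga

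Col18a1, second window (chr10:77166481-77166780, minus strand): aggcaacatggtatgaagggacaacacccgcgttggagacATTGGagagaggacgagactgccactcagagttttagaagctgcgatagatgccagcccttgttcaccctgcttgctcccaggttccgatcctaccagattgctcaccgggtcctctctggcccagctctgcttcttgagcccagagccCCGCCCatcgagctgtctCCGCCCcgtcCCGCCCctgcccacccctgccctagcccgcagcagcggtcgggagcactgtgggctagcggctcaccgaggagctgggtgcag

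The Col4a1 and Col4a2 windows share 78 bases on opposite strands, and both are rich in CpG: 37 and 33 CpG in 300 bases, with 74.0% and 73.7% G and C, where the median of 32851 RefSeq windows was 7 CpG and 52.7%. The Col4a1 window held 1 CCAAT box and 1 GC box and that of Col4a2 held 1 and 3. The GC box of the Col4a1 window lies in the shared bases and is the same site as 1 of the 3 in the Col4a2 window. The Col4a4 window had 14 CpG and neither box. The 2 windows of Col18a1 differed: the first had 6 CpG and neither box, the second 16 CpG, 1 CCAAT box and 3 GC boxes. Among all 32851 windows 37.4% held a CCAAT box and 35.7% a GC box; a TATA box (TATAAA, or TTTATA on the other strand), held by 13.6%, was in none of these 5. A match is a match of letters only. In the deposited coordinates, whose build could not be established, the type IV genes lie in pairs on opposite strands: Col4a2 and Col4a1 on chromosome 8 overlap by 22 bases at their starts, Col4a3 and Col4a4 on chromosome 1 are 71 bases apart, and Col4a5 and Col4a6 on chromosome X are 1308 bases apart. Whether the counting used strand is not stated, so reads in the overlap of Col4a1 and Col4a2 cannot be told apart. Col18a1 likewise overlaps Slc19a1, a gene on the opposite strand with a mean of 25.1 FPKM.

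The basement membrane class split by network. Col4a1, a chain of nearly all basement membranes and the collagen gene with the highest mean FPKM over the 12 libraries, was at 71.4, 74.7 and 170 FPKM in cKO IR and at 76.7, 49.9 and 110 FPKM in WT IR libraries. It was at 52.6, 63.5 and 56.6 FPKM in cKO sham and at 40.7, 38.7 and 34.4 FPKM in WT sham libraries. Every IR library was above every sham library of its genotype, and replicate 3 was the highest after IR. Col4a1 rose in WT IR kidneys by 0.97 on the log2 scale (SE 0.33, limma adjusted p = 0.0359). In cKO kidneys the difference was 0.75 (SE 0.33, limma adjusted p = 0.0818) and was not called; it passed in 1 of 20 alternatives, without cKO IR 1 (0.96, limma adjusted p = 0.049), and the adjusted p of the others reached 0.291. The cKO difference without both IR replicates 3 was 0.34 (limma adjusted p = 0.116) and the ratio of means 1.27, against 1.83 with all libraries. An exact two-sided permutation test of Col4a1 FPKM gave p = 0.1 in both genotypes, the smallest value that 3 against 3 libraries allow.

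Col4a2, the partner chain of Col4a1, stood at 46.4, 47.2 and 118 FPKM in cKO IR and at 52.6, 33.0 and 69.0 FPKM in WT IR libraries. Its sham levels were 40.2, 47.8 and 41.7 FPKM in cKO and 30.7, 31.8 and 28.4 FPKM in WT. The WT groups did not overlap, whereas cKO sham 2 lay above cKO IR 1 and 2. The differences were 0.56 in cKO (SE 0.34, limma adjusted p = 0.192) and 0.69 in WT (SE 0.34, limma adjusted p = 0.126), neither of them called; the WT difference passed in 2 of 20 alternatives, without cKO IR 3 (limma adjusted p = 0.0248) or WT IR 2 (limma adjusted p = 0.0375), and the adjusted p of the others reached 0.358. Col4a2 without both IR replicates 3 differed by 0.12 in cKO (limma adjusted p = 0.586) and by 0.45 in WT (limma adjusted p = 0.0628). The ratio of Col4a1 to Col4a2 ran from 1.44 to 1.58 in cKO IR and from 1.46 to 1.59 in WT IR, against 1.31 to 1.36 in cKO sham and 1.21 to 1.33 in WT sham.

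Col4a3, a chain of the glomerular network, was at 17.6, 12.3 and 14.3 FPKM in cKO IR and at 13.8, 26.6 and 16.0 FPKM in WT IR libraries. Its sham levels were 40.8, 38.6 and 40.3 FPKM in cKO and 42.5, 39.3 and 33.9 FPKM in WT. All 6 IR libraries were below all 6 sham libraries, with WT IR 2 the highest of the IR libraries. Col4a3 fell by 1.39 in cKO (SE 0.20, limma adjusted p = 0.00028) and by 1.05 in WT kidneys (SE 0.20, limma adjusted p = 0.00234) on the log2 scale.

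Col4a4, which pairs with Col4a3 in the genome and in the protein, stood at 17.5, 13.4 and 12.9 FPKM in cKO IR and at 15.0, 24.1 and 15.4 FPKM in WT IR libraries. In sham libraries it was at 33.2, 34.3 and 33.1 FPKM in cKO and at 37.0, 31.8 and 31.6 FPKM in WT. The IR and sham libraries were again apart, with the same WT IR library nearest to sham. Col4a4 fell by 1.16 in cKO (SE 0.17, limma adjusted p = 0.000249) and by 0.88 in WT kidneys (SE 0.17, limma adjusted p = 0.00207).

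Col4a5, the X-linked chain of that network, was at 6.75, 7.03 and 6.75 FPKM in cKO IR and at 7.81, 7.06 and 8.75 FPKM in WT IR libraries. Its sham levels were 13.1, 11.4 and 10.2 FPKM in cKO and 8.84, 8.72 and 9.39 FPKM in WT. The cKO groups were wide apart, the WT IR and WT sham groups overlapped, and each cKO sham library was above each WT sham library. Col4a5 fell by 0.67 in cKO kidneys (SE 0.09, limma adjusted p = 0.00021) and differed by -0.17 in WT (SE 0.09, limma adjusted p = 0.165). The difference between the genotypes in that effect was -0.50 (SE 0.13), with an unadjusted p of 0.0034 and a limma adjusted p of 0.11, so it was not called.

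Summed over Col4a3, Col4a4 and Col4a5, the level was 32.8 to 41.9 FPKM in cKO IR and 36.6 to 57.8 in WT IR libraries, against 83.6 to 87.2 in cKO sham and 75.0 to 88.3 in WT sham. The sum of Col4a1 and Col4a2 was 118 to 289 FPKM in cKO IR and 82.9 to 179 in WT IR, against 92.8 to 111 in cKO sham and 62.8 to 71.5 in WT sham. The ratio of Col4a1 to Col4a3 was accordingly 4.05 to 11.9 in cKO IR and 1.88 to 6.86 in WT IR, and 1.29 to 1.65 in cKO sham and 0.959 to 1.01 in WT sham, with no overlap between IR and sham. The ratio of Col4a3 to Col4a4 stayed between 0.918 and 1.24 in all 12 libraries. Col4a6, the remaining type IV gene, was below the filter at means of 0.241 FPKM in cKO IR and 0.330 FPKM in WT IR, against 0.396 FPKM in cKO sham and 0.331 FPKM in WT sham.

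Podocytes make the glomerular network, and their markers were measured beside it. The summed level of 7 podocyte markers was 76.4 to 100 FPKM in cKO IR and 71.8 to 99.4 in WT IR kidneys, against 88.2 to 115 in cKO sham and 86.6 to 107 in WT sham kidneys, ranges that overlap. None of the 7 was at 0 in any library. Of the 6 tested, 1 was called lower in cKO (Nphs1, nephrin of the slit diaphragm, log2 difference -0.61, limma adjusted p = 0.00183) and 2 in WT, among them Nphs1 (-0.42, limma adjusted p = 0.0184). The share called lower over all tested genes was 23.1% in cKO and 19.5% in WT. Among IR libraries, Col4a3, Col4a4 and the summed proximal tubule markers (1808 FPKM) were all highest in WT IR 2. The part of podocytes or of tubule cells in the fall of Col4a3 and Col4a4 was not tested.

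**Figure D1:**
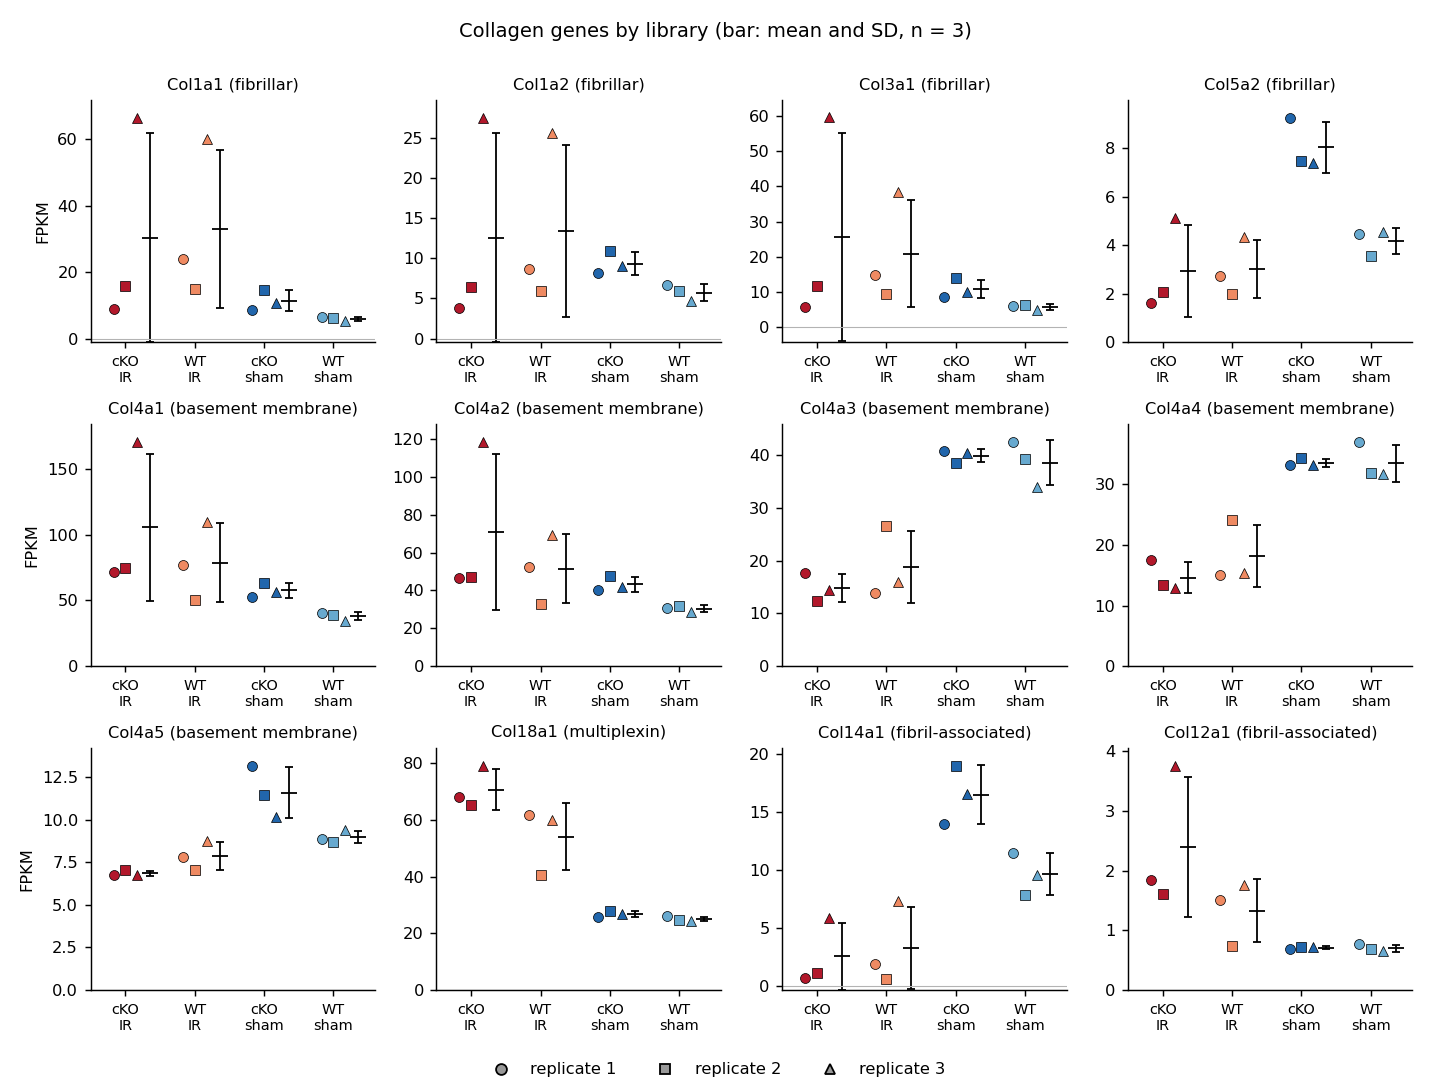
FPKM of 12 collagen genes in each of the 12 libraries (points, shaped by replicate number), with the mean and SD of each group of 3 beside them. Col4a3 and Col4a4 are below sham and Col18a1 above sham in all 6 IR libraries. Col1a1, Col1a2 and Col3a1 are highest in replicate 3 of both IR groups, and Col1a1 and Col3a1 are above WT sham in every WT IR library.

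For 6 of the 7 tested fibrillar genes, all but Col27a1, replicate 3 was the highest library of both IR groups. Col1a1, the major chain of type I collagen, was at 8.93, 16.0 and 66.3 FPKM in cKO IR and at 23.9, 14.9 and 59.9 FPKM in WT IR libraries. In sham libraries it was at 8.57, 14.8 and 10.8 FPKM in cKO and at 6.53, 6.26 and 5.40 FPKM in WT. The WT groups were apart, the cKO groups overlapped, and replicate 3 exceeded the next IR library of its group by far. Col1a1 rose in WT IR kidneys by 2.04 on the log2 scale (SE 0.63, limma adjusted p = 0.0241). In cKO kidneys the difference was 0.89 (SE 0.63, limma adjusted p = 0.262). The exact two-sided permutation test gave p = 0.4 in cKO and p = 0.1 in WT.

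The call of Col1a1 in WT was lost when WT IR 1, WT IR 3 or any WT sham library was left out, with limma adjusted p between 0.0503 and 0.093, and with no filter on low genes (0.058). The log2 difference remained between 1.50 and 2.47 over all 20 alternatives. Col4a1 in WT lost its call under the same 6 settings, with limma adjusted p between 0.0656 and 0.133. Leaving out WT IR 3 and cKO IR 3 together, which lowers the spread that all groups share, gave 1.50 for Col1a1 (SE 0.28, limma adjusted p = 0.00408) and 0.70 for Col4a1 (SE 0.17, limma adjusted p = 0.0114) in WT. In cKO kidneys the same setting left Col1a1 at 0.10 (SE 0.28, limma adjusted p = 0.79).

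Col1a2, the second chain of type I collagen, was at 3.84, 6.39 and 27.5 FPKM in cKO IR and at 8.62, 5.89 and 25.6 FPKM in WT IR libraries. Its sham levels were 8.16, 10.9 and 9.01 FPKM in cKO and 6.65, 5.92 and 4.63 FPKM in WT. Both pairs of groups overlapped, and cKO IR 1 and 2 were below all cKO sham libraries. The differences were -0.03 in cKO (SE 0.61, limma adjusted p = 0.969) and 0.86 in WT (SE 0.61, limma adjusted p = 0.282). The ratio of Col1a1 to Col1a2 was 2.33 to 2.50 in cKO IR and 2.34 to 2.78 in WT IR, against 1.05 to 1.36 in cKO sham and 0.982 to 1.17 in WT sham. That ratio separated all IR from all sham libraries, replicate 3 included.

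Col3a1, which encodes type III collagen of reticular fibers, was at 5.81, 11.6 and 59.7 FPKM in cKO IR and at 14.9, 9.45 and 38.3 FPKM in WT IR libraries. Sham levels were 8.61, 13.8 and 10.1 FPKM in cKO and 5.84, 6.38 and 4.90 FPKM in WT. The WT groups were apart and the cKO groups overlapped. The differences of 0.57 in cKO (SE 0.69, limma adjusted p = 0.51) and 1.49 in WT (SE 0.69, limma adjusted p = 0.106) were not called. Without cKO IR 3 alone, Col3a1 passed in WT (1.49, limma adjusted p = 0.0181). Without both IR replicates 3 it was called in WT at 0.95 (SE 0.29, limma adjusted p = 0.0294) and stood at -0.33 in cKO (limma adjusted p = 0.361).

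Col5a2, a chain of the type V collagen that is built into type I fibrils, ran the other way. It was at 1.61, 2.07 and 5.11 FPKM in cKO IR and at 2.75, 1.99 and 4.34 FPKM in WT IR libraries. Sham levels were 9.25, 7.50 and 7.40 FPKM in cKO and 4.45, 3.55 and 4.54 FPKM in WT. All cKO IR libraries were below all cKO sham libraries, and the WT groups overlapped. Col5a2 fell in cKO kidneys by 1.30 (SE 0.29, limma adjusted p = 0.00367) and differed by -0.40 in WT (SE 0.29, limma adjusted p = 0.297), a WT difference called without both IR replicates 3 (-0.62, limma adjusted p = 0.00993). The difference between these effects was -0.90 (SE 0.41, limma adjusted p = 0.347) and was not called.

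The other tested fibrillar genes were not called in any comparison with all 12 libraries. Col5a1, the main type V chain, ranged from 1.78 to 12.5 FPKM in cKO IR and from 2.34 to 10.1 in WT IR, against 2.35 to 3.42 in cKO sham and 1.76 to 2.05 in WT sham. Col5a3, another type V chain, ranged from 0.818 to 4.23 FPKM in cKO IR and from 1.02 to 2.35 in WT IR, against 0.475 to 0.717 in cKO sham and 0.521 to 0.834 in WT sham, so both pairs of groups were apart. Col27a1, a fibrillar collagen of cartilage, ranged from 5.22 to 7.01 FPKM in cKO IR and from 5.08 to 17.4 in WT IR, against 7.62 to 10.4 in cKO sham and 9.04 to 15.8 in WT sham. Leaving out 1 library made Col5a1 pass in WT (without cKO IR 3, limma adjusted p = 0.0428), Col5a3 in WT (without cKO IR 3, limma adjusted p = 0.0271) and in cKO (without cKO IR 1, limma adjusted p = 0.0242), and Col27a1, lower, in WT (without WT IR 2, limma adjusted p = 0.0089), each in that 1 of the alternatives. Col5a1 without both IR replicates 3 differed by -0.11 in cKO, against 0.55 with all libraries, and by 0.56 in WT, against 1.02. Col5a3 then differed by 0.32 in cKO (limma adjusted p = 0.111), against 0.78, and by 0.38 in WT (limma adjusted p = 0.0743), against 0.58. The 4 fibrillar genes below the filter, Col2a1, Col11a1, Col11a2 and Col24a1, reached at most 0.205 FPKM in any library.

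The cells that make fibrillar collagen were gauged by 10 fibroblast and pericyte markers. Their summed level was 51.2, 51.9 and 130 FPKM in cKO IR and 58.3, 41.0 and 101 FPKM in WT IR libraries, against 51.3 to 63.4 in cKO sham and 47.4 to 53.4 in WT sham. Replicate 3 of each IR group was thus the highest library for these markers as well, and for the summed fibrillar collagens at 180.8 FPKM in cKO IR and 146.0 FPKM in WT IR. The other IR libraries had fibrillar sums of 30.2 and 47.5 FPKM in cKO and 63.0 and 53.1 FPKM in WT, against 48.0 to 61.8 in cKO sham and 32.6 to 40.7 in WT sham. Of the 6 tested markers, 1 was called higher in each genotype (Acta2, smooth muscle actin, 1.56 in cKO and 1.18 in WT). Dcn, the fibroblast proteoglycan decorin, was called lower in both (-2.04 in cKO and -1.20 in WT), and Rgs5, a pericyte marker, in cKO (-0.60). Over all tested genes, 27.8% were called higher in cKO and 22.6% in WT, and 23.1% lower in cKO and 19.5% in WT. Lum was at 0 in 1 cKO IR library. The part of these cells in the collagen values was not tested.

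**Figure D2:**
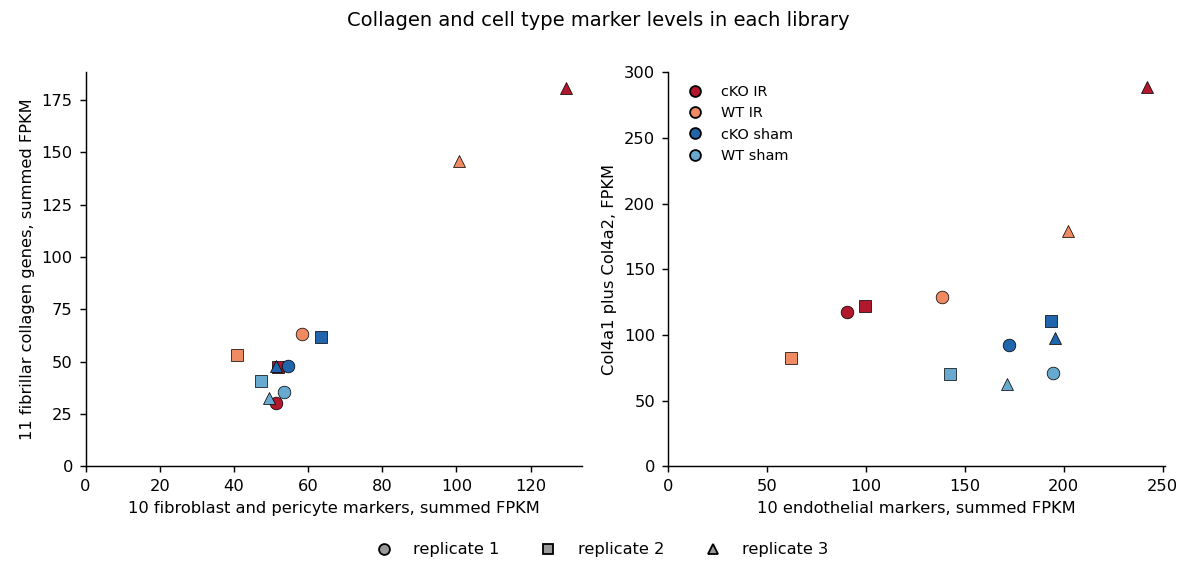
Each point is 1 library. Left, the summed FPKM of the 11 fibrillar collagen genes against the sum of 10 fibroblast and pericyte markers; right, Col4a1 plus Col4a2 against the sum of 10 endothelial markers. Replicate 3 of cKO IR and of WT IR lie at the upper right in both panels.

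Endothelial cells are another source of Col4a1 and Col4a2. Their 10 markers summed to 90.6, 99.8 and 242 FPKM in cKO IR and to 139, 62.1 and 202 FPKM in WT IR libraries, against 172 to 196 in cKO sham and 143 to 195 in WT sham. Replicates 1 and 2 of both IR groups were below all sham libraries of their genotype in that sum, while their sum of Col4a1 and Col4a2 was above all of those sham libraries. Replicate 3 of each IR group was the highest library of its group in both sums. The part of endothelial cells in the Col4a1 and Col4a2 values was not tested. Of the 10 tested markers only Kdr, a VEGF receptor, was called, lower in both genotypes (-1.23 in cKO and -1.02 in WT), and none was at 0. The share called lower over all tested genes was 23.1% in cKO and 19.5% in WT.

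Col18a1, the basement membrane proteoglycan whose C-terminal fragment is endostatin, gave the clearest rise. It was at 68.0, 65.1 and 79.0 FPKM in cKO IR and at 61.7, 40.5 and 60.1 FPKM in WT IR libraries. Sham levels were 25.9, 27.9 and 26.7 FPKM in cKO and 26.0, 24.8 and 24.5 FPKM in WT. All IR libraries were above all sham libraries, replicate 3 was not set apart, and the lowest cKO IR library exceeded the highest WT IR library. Col18a1 rose by 1.36 in cKO (SE 0.14, limma adjusted p = 3.55e-05) and by 1.06 in WT kidneys (SE 0.14, limma adjusted p = 0.000314). Col15a1, the other multiplexin, was highest in replicate 3 (17.7 FPKM in cKO IR and 15.6 in WT IR, with the other 10 libraries at 3.12 to 7.03) and was not called; without both IR replicates 3 it differed by -0.32 in cKO, against 0.27 with all libraries, and by -0.24 in WT, against 0.28.

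The 3 tested fibril-associated collagens, which coat fibrils, moved in both directions. Col14a1 was at 0.714, 1.09 and 5.89 FPKM in cKO IR and at 1.90, 0.580 and 7.31 FPKM in WT IR libraries. Sham levels were 13.9, 19.0 and 16.5 FPKM in cKO and 11.4, 7.83 and 9.56 FPKM in WT. All IR libraries were below all sham libraries, by a wide margin except for replicate 3. Col14a1 fell by 2.57 in cKO (SE 0.59, limma adjusted p = 0.00419) and by 1.64 in WT kidneys (SE 0.59, limma adjusted p = 0.0447). The WT call was lost in 12 of 20 alternatives, among them those leaving out WT IR 1 (limma adjusted p = 0.116), WT IR 2 (0.14), cKO IR 2 (0.0526) or any sham library (0.0582 to 0.114). The difference without both IR replicates 3 was -3.20 in cKO (limma adjusted p = 4.74e-05) and -2.30 in WT (SE 0.25, limma adjusted p = 0.000433).

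Col12a1 was at 1.85, 1.61 and 3.75 FPKM in cKO IR and at 1.50, 0.734 and 1.76 FPKM in WT IR libraries. In sham libraries it was at 0.681, 0.727 and 0.721 FPKM in cKO and at 0.768, 0.686 and 0.649 FPKM in WT. With sham levels below the filter, Col12a1 passed it through its IR libraries. The cKO groups were apart, and WT IR 2 lay within the WT sham range. Col12a1 rose by 0.94 in cKO (SE 0.22, limma adjusted p = 0.00514) and differed by 0.43 in WT (SE 0.22, limma adjusted p = 0.149), which passed without WT IR 2 (0.63, limma adjusted p = 0.0371).

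Col16a1 was at 4.16, 4.08 and 5.49 FPKM in cKO IR and at 5.27, 2.74 and 3.58 FPKM in WT IR libraries. Sham levels were 2.43, 2.87 and 3.10 FPKM in cKO and 2.81, 2.89 and 2.44 FPKM in WT. The cKO groups were apart and the WT groups overlapped through WT IR 2. Col16a1 rose by 0.55 in cKO (SE 0.17, limma adjusted p = 0.0202), a call lost without cKO IR 3 (0.43, limma adjusted p = 0.0737) or cKO sham 1 (0.48, limma adjusted p = 0.0724). In WT the difference was 0.36 (SE 0.17, limma adjusted p = 0.114), which passed without WT IR 2 (0.53, limma adjusted p = 0.0177).

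The beaded filament genes Col6a1, Col6a2 and Col6a3, whose chains assemble into 1 type VI molecule, were not called. Col6a1 was at 1.54, 2.77 and 14.6 FPKM in cKO IR and at 3.80, 2.79 and 8.71 FPKM in WT IR libraries, against 6.15 to 8.94 in cKO sham and 4.24 to 5.66 in WT sham. Replicate 3 lay above and replicates 1 and 2 below sham in both genotypes. Without cKO IR 3 alone, Col6a1 was called lower in cKO (-1.42, limma adjusted p = 0.00777). Without both IR replicates 3, Col6a1 (-1.42, SE 0.21, limma adjusted p = 0.000642) and Col6a2 (-0.73, SE 0.17, limma adjusted p = 0.00731) were called lower in cKO kidneys, as was Col1a2 (-0.78, SE 0.22, limma adjusted p = 0.0162). Col8a1, a short chain collagen of vessel walls, was at 7.74 FPKM in cKO IR 3 and 7.54 in WT IR 3 and between 0.946 and 2.31 FPKM in the other 10 libraries. Its difference without both IR replicates 3 was 0.30 in cKO, against 0.86 with all libraries, and 0.07 in WT, against 0.62. That of Col6a3 was -0.39 in cKO, against 0.29, and 0.35 in WT, against 0.96.

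Of the 23 collagen genes below the filter, 8 had a group mean of at least 0.2 FPKM. Col6a6, a type VI chain, had 18 reads over the cKO IR and 21 over the WT IR libraries, against 540 over the cKO sham and 317 over the WT sham libraries. Its mean was 0.0422 FPKM in cKO IR and 0.0498 in WT IR, and 1.34 in cKO sham and 0.825 in WT sham. The transmembrane collagen gene Col23a1 had means of 0.153 FPKM in cKO IR and 0.197 FPKM in WT IR, against 0.724 FPKM in cKO sham and 0.764 FPKM in WT sham. The fibril-associated Col19a1 had means of 0.0370 FPKM in cKO IR and 0.0702 FPKM in WT IR, against 0.340 FPKM in cKO sham and 0.541 FPKM in WT sham. All 3 were below sham in every IR library.

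With no filter on the mean, limma called these 3 lower in both genotypes, with log2 differences of -1.13 in cKO and -0.77 in WT for Col6a6, -0.58 in cKO and -0.56 in WT for Col23a1, and -0.36 in cKO and -0.53 in WT for Col19a1 (adjusted p from 0.000818 to 0.0303). Col26a1 was called lower in cKO (-0.41, limma adjusted p = 0.0182). Col4a6, Col7a1, Col13a1 and Col20a1 were not called. The other 15 genes reached at most 0.235 FPKM in any library, and Col9a1 was listed at 0 in all 12. Among them, with no filter, Col17a1 was called higher in WT (0.16, limma adjusted p = 0.0305). It had 34 reads over the WT IR libraries and 0 over the WT sham libraries. Col6a4 was called lower in WT (limma adjusted p = 0.0241), and Col6a5 (0.0154) and Col9a3 (0.00926) were called lower in cKO. The share of all genes called with no filter is not given here.

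Counted over the tested members, limma called 8 of 21 in cKO IR against cKO sham, where 50.8% of all tested genes were called. Of these, 3 were higher (Col18a1, Col16a1 and Col12a1, which passed the filter through its IR libraries), where 27.8% of all genes were. The other 5 were lower (Col4a3, Col4a4, Col4a5, Col5a2 and Col14a1), where 23.1% were. In WT IR against WT sham it called 6 of 21, where 42.2% of all genes were called: 3 higher (Col1a1, Col4a1 and Col18a1; 22.6% of all genes) and 3 lower (Col4a3, Col4a4 and Col14a1; 19.5%). Without both IR replicates 3, a setting chosen after the data were seen, limma called 10 of 21 in cKO (2 higher and 8 lower). Of all genes 52.4% were called in that setting. In WT it called 8 of 21 (4 higher and 4 lower), where 38.3% of all genes were called. The libraries left out were the highest of their groups for most collagens, so leaving them out favors lower calls. By separation, the cKO IR libraries lay wholly above the cKO sham libraries for 6 of 21 collagens (32.6% of all genes) and wholly below for 6 (27.8%), and the WT IR libraries lay above the WT sham libraries for 8 (28% of all genes) and below for 3 (24.9%). By class, the calls in cKO were 1 of 7 fibrillar, 3 of 5 basement membrane and 4 of 9 others, and in WT 1 of 7 fibrillar, 3 of 5 basement membrane and 2 of 9 others. Rescaled to plain library totals, the median of all genes moved to 0.13 in WT IR, and 69.4% of its calls were higher, against 53.7% as deposited.

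The median log2 difference of the fibrillar class was 0.55 in cKO IR and 0.86 in WT IR, beside 0.02 in cKO and 0.01 in WT over all tested genes. That of the type IV class was -0.67 in cKO and -0.17 in WT, and that of the other classes 0.29 in cKO and 0.36 in WT. Over all members, tested or not, with log2(FPKM + 0.1), the fibrillar median was 0.26 in cKO and 0.32 in WT, the type IV median -0.64 in cKO and -0.09 in WT, and that of the others -0.01 in cKO and -0.10 in WT. Without cKO IR 3 the fibrillar median in cKO was -0.33 and that of the others -0.32, and without WT IR 3 the fibrillar median in WT was 0.38. With Col7a1, Col15a1 and Col18a1 added to the basement membrane class its median was 0.27 in cKO and 0.28 in WT. The classes were therefore not uniform, with type IV values from -1.39 to 0.75 in cKO and from -1.05 to 0.97 in WT.

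**Figure D3:**
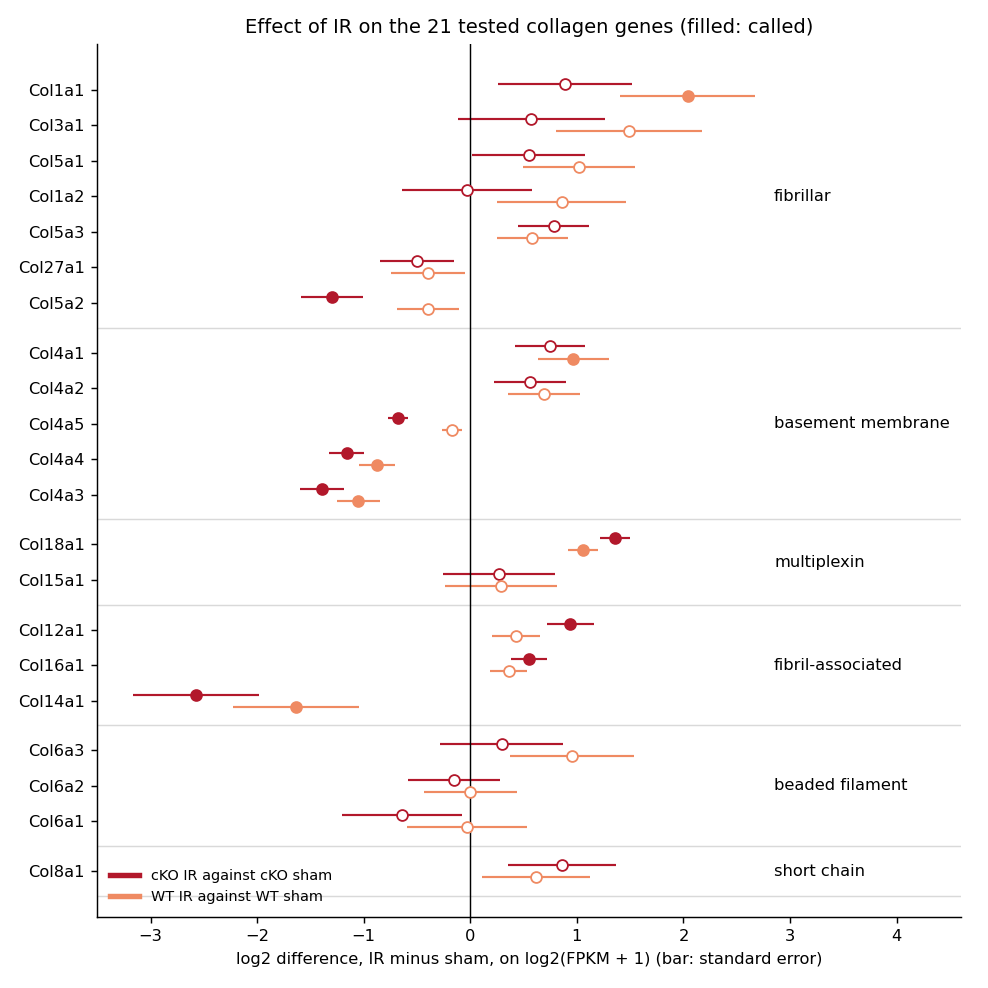
Log2 difference of IR minus sham (points, with standard errors) for the 21 tested collagen genes by class, in cKO (dark red) and WT (orange); filled points were called at a limma adjusted p under 0.05. Col4a3, Col4a4 and Col14a1 lie left and Col18a1 lies right of 0 with filled points in both genotypes.

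As shares of the summed collagen FPKM, fibrillar genes made up 10.9% to 27.4% in cKO IR and 19.7% to 29.9% in WT IR, against 15.9% to 18.4% in cKO sham and 13.7% to 16.4% in WT sham. Type IV genes made up 49.0% to 57.9% in cKO IR and 44.8% to 56.0% in WT IR, against 58.2% to 61.6% in cKO sham and 60.6% to 62.0% in WT sham, so every IR library was below every sham library of both genotypes. The other classes made up 23.6% to 31.2% in cKO IR and 23.0% to 28.2% in WT IR, against 22.0% to 23.7% in cKO sham and 23.0% to 24.4% in WT sham. The total over the 44 genes was 276 to 659 FPKM in cKO IR and 252 to 489 in WT IR, against 293 to 337 in cKO sham and 226 to 258 in WT sham.

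**Figure D4:**
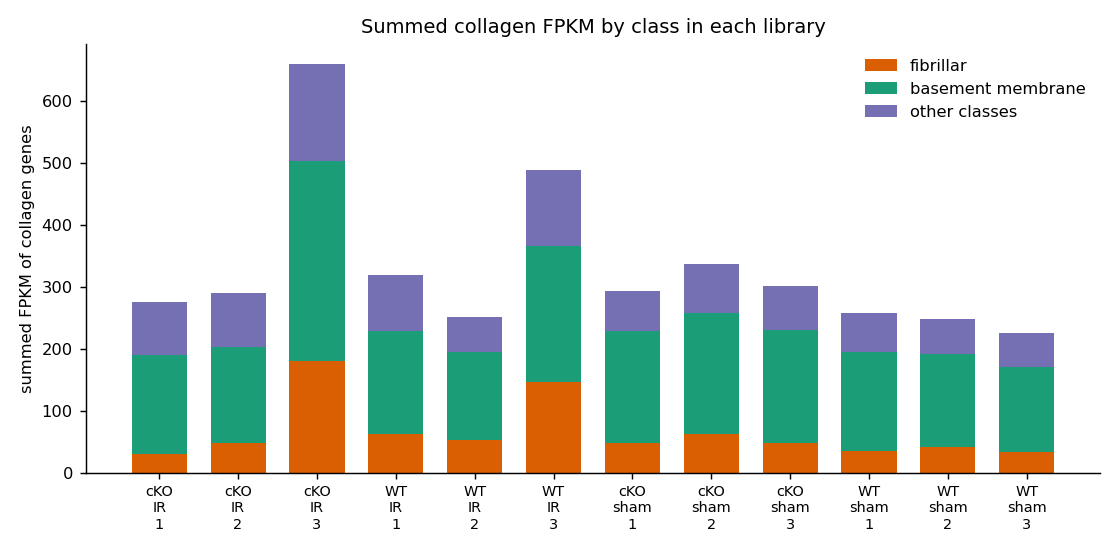
Summed FPKM of the 44 collagen genes in each library, stacked by class. Replicate 3 of cKO IR and of WT IR has the largest sum of its group, at 659 FPKM in cKO IR and 489 FPKM in WT IR, and type IV genes make up a smaller share of each IR bar than of any sham bar.

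**Figure D5:**
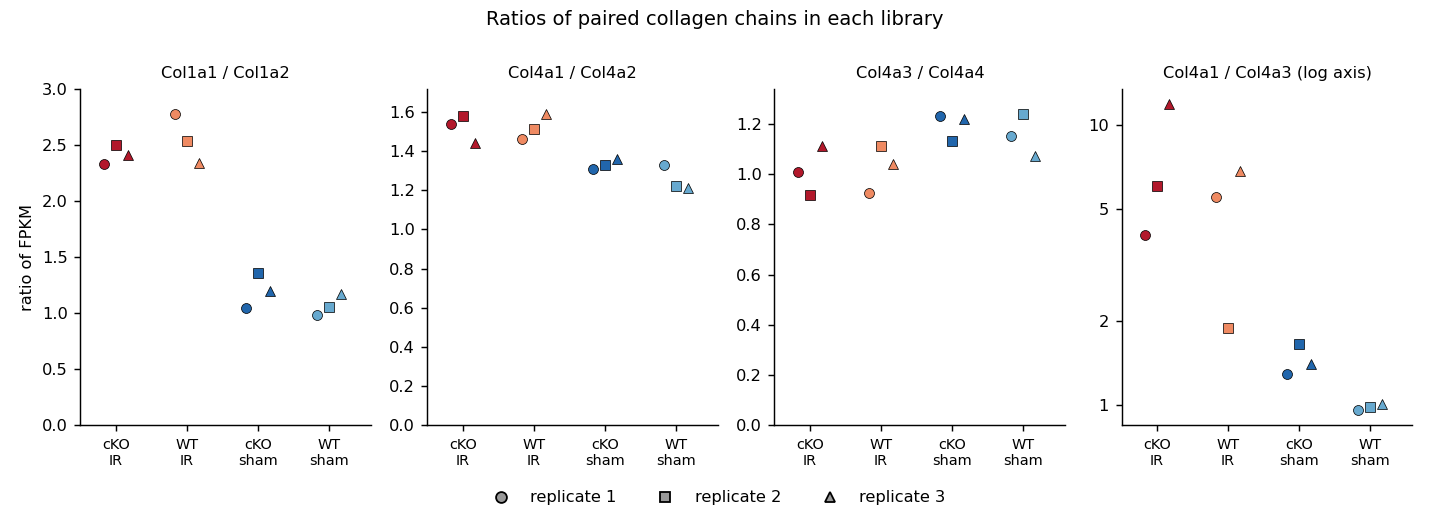
Ratios of FPKM between collagen genes in each library (points, shaped by replicate number), with a log axis in the last panel. Col1a1 over Col1a2, Col4a1 over Col4a2 and Col4a1 over Col4a3 separate all IR from all sham libraries, whereas Col4a3 over Col4a4 does not.

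Between genotypes after IR, limma called none of the 21 collagen genes and none of the 12868 genes (0% called; 1926 at an unadjusted p under 0.05, and 1 gene, no collagen, with limma voom on the recovered reads). Col18a1 had the smallest limma adjusted p among the collagens (log2 difference 0.40, SE 0.14, limma adjusted p = 0.241) and was the only 1 whose cKO IR libraries all lay above the WT IR libraries, as 10.2% of all genes did. Col4a5 was the only 1 whose cKO IR libraries all lay below them (5.84% of all genes), at a difference of -0.17 (SE 0.09, limma adjusted p = 0.423). Col1a1 differed by -0.36 (SE 0.63) and Col4a1 by 0.37 (SE 0.33), both within the spread of the libraries; the exact permutation p was 0.9 for Col1a1 and 0.7 for Col4a1.

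In sham kidneys limma called no collagen gene between genotypes, where 1.1% of all genes were called (142 genes; 1472 at an unadjusted p under 0.05). The collagens among the 1472 were Col4a5 (0.33, SE 0.09, limma adjusted p = 0.164) and Col5a2 (0.80, SE 0.29, limma adjusted p = 0.3). In 12 of the 21 tested collagens, however, all cKO sham libraries lay above all WT sham libraries, where 13% of all tested genes did so, and in none did they lie below (12% of all genes). These 12 were Col1a1, Col1a2, Col3a1, Col5a1, Col5a2, Col4a1, Col4a2, Col4a5, Col6a1, Col6a2, Col6a3 and Col14a1. Their mean FPKM was 1.29 (Col4a5) to 1.93 (Col5a2) times that of WT sham. The exact two-sided permutation p of Col1a1 (11.4 ± 3.15 FPKM in cKO sham and 6.07 ± 0.591 in WT sham, SD, n = 3 each) and of Col4a1 (57.6 ± 5.55 FPKM in cKO sham and 37.9 ± 3.22 in WT sham) was 0.1. These 12 genes were read in the same 6 libraries and are not independent of each other. The fibroblast and pericyte markers summed to 51.3 to 63.4 FPKM in cKO sham and 47.4 to 53.4 in WT sham, ranges that overlap. With both IR replicates 3 left out, the shared spread was smaller and Col5a2 was called (SE 0.13, limma adjusted p = 0.0256), where 1.41% of all genes were.

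The difference between genotypes in the effect of IR was called for no collagen gene, where 0.878% of all genes were called (113 genes; 1878 at an unadjusted p under 0.05). The fibrillar median of that difference was -0.89, with 1 of 7 positive, and the type IV median -0.28, with 0 of 5 positive, beside 0.03 over all genes. The share of positive differences over all genes was not counted, and genes read in the same libraries are not independent. The fibrillar value ran from -1.27 to -0.24 with 1 library left out and was -0.11 with no filter. It subtracts the difference between shams, where the fibrillar median was 0.62, while after IR that median was -0.11.

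Genes that make, process, cut or bind collagen were called in both directions; for all tested genes the share called higher was 27.8% in cKO IR and 22.6% in WT IR, and the share called lower 23.1% in cKO IR and 19.5% in WT IR. Of 19 tested genes for chain folding and modification, 10 were called higher and 3 lower in cKO IR, and 9 higher and 1 lower in WT IR, with a median log2 difference of 0.29 in cKO and 0.28 in WT beside 0.02 in cKO and 0.01 in WT over all tested genes. The chaperone gene Hspa5 rose by 0.71 in cKO and 1.31 in WT, the prolyl hydroxylase gene P4ha1 by 0.72 in cKO and 0.81 in WT, and the lysyl hydroxylase gene Plod3 by 0.81 in cKO and 0.78 in WT. Colgalt2, a collagen galactosyltransferase gene, fell in both (-0.96 in cKO and -0.78 in WT), and P3h2, a prolyl 3-hydroxylase gene, was called lower in cKO (-1.12). Serpinh1, the collagen-specific chaperone and chosen after its values were seen, averaged 89.3 ± 34.4 FPKM in cKO IR and 87.0 ± 35.6 in WT IR, against 40.2 ± 1.09 in cKO sham and 29.7 ± 1.48 in WT sham (SD, n = 3 each).

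Of 10 tested genes for procollagen cleavage and crosslinking, the same 2 were called higher in each genotype: Tgm2, a transglutaminase (0.91 in cKO and 1.24 in WT), and Loxl4, a lysyl oxidase (1.05 in cKO and 0.86 in WT). Lox and Loxl2, other lysyl oxidases, were not called, and the median of the 10 was 0.42 in cKO and 0.35 in WT. The count of 2 in 10 is below the share of all genes called higher. Loxl4 averaged under 1 FPKM in both sham groups (0.688 FPKM in cKO sham and 0.68 in WT sham) and passed the filter through its IR libraries. Among 7 tested genes of collagen breakdown, Timp1, an inhibitor of matrix metalloproteinases, averaged 25.8 FPKM in cKO IR and 19.9 in WT IR, against 0.256 in cKO sham and 0.0821 in WT sham, and rose by 4.34 in cKO and 4.01 in WT on the log2 scale. The matrilysin gene Mmp7 was called higher in both genotypes, at means of 2.84 FPKM in cKO IR and 1.43 in WT IR, against 0.0215 in cKO sham, and was listed at 0 in all WT sham libraries. Timp1 and Mmp7 passed the filter through their IR libraries, whereas the collagenase gene Mmp13, at 0.192 FPKM in cKO IR and 0.257 in WT IR against 1.83 in cKO sham and 0.822 in WT sham, was left out by it. Timp3 fell (-0.73 in cKO and -0.38 in WT). Of 4 tested collagen receptors, Itgb1 (1.02 in cKO and 0.79 in WT) and Ddr1 (0.52 in cKO and 0.83 in WT) rose in both genotypes, and Itga1 was called lower in cKO (-0.31), so that 3 of 4 were called in cKO and 2 of 4 in WT, where 50.8% of all genes were called in cKO and 42.2% in WT.

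Of the other basement membrane proteins 4 of 14 tested were called higher and 4 lower in cKO IR, and 2 higher and 2 lower in WT IR, with a median of -0.29 in cKO and -0.11 in WT, counts that are near or below the shares of all genes. Agrn, which encodes agrin, rose (0.51 in cKO and 0.78 in WT). The laminin chain genes Lamc3 (-1.90 in cKO and -1.66 in WT) and Lama3 (-1.32 in cKO and -0.65 in WT) fell. Of 10 tested genes of the TGF-beta axis, 6 were called higher in cKO IR and 4 in WT IR, and none lower, where 27.8% of all genes were called higher in cKO and 22.6% in WT, with a median of 0.84 in cKO and 0.46 in WT beside 0.02 in cKO and 0.01 in WT over all genes. They included the receptor genes Tgfbr1 (0.79 in cKO and 0.78 in WT) and Tgfbr2 (0.998 in cKO and 0.88 in WT). Between cKO IR and WT IR no gene of these lists was called.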

How the data were processed

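The measurements were RNA sequencing of 12 mouse kidney libraries, 3 in each of 4 groups taken from the labels. The authors deposited 1 table of FPKM per gene for all libraries; per the submitters' processing notes HISAT2 2.2.1 was used and builds mm8 and mm9 are named, while no source used here gives the counter, the annotation or the strand setting. The coordinates in the table carry no build: of the 44 collagen genes, whose IDs are all in GENCODE M21, 3 had the same start and end there. FPKM multiplied by gene length came out as whole reads in every library (largest distance from a whole number 5.63e-08 reads), and the divisor of the deposited values was 0.933 to 1.13 times the sum of reads, so a scaling other than plain totals had been applied. Mitochondrially encoded genes took 7.29% to 10.4% of the reads.

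From these values, log2(FPKM + 1) was fitted with limma 3.58.1 in R 4.3.3, with 1 mean per group over all 12 libraries, variances moderated with a trend (residual degrees of freedom 8, prior 2.59) and Benjamini-Hochberg adjustment over the 12868 genes that averaged 1 FPKM or more. Col1a1 and Col4a1 were also compared by exact two-sided permutation of FPKM. No depth interval is attached to FPKM; the reads behind low genes are given where named. The members, the classes and the marker lists were chosen with earlier results of these data known. Every tested collagen gene is named, as is each below the filter with a group mean of at least 0.2 FPKM; full values are given for Col1a1, Col1a2, Col3a1, Col4a1, Col4a2, Col4a3 and each called collagen gene. From other lists, up to 4 tested genes with the smallest p in each IR comparison, and up to 2 between the IR groups, could be named; some of these are not reported here. Alternatives were a pseudocount of 0.1, no filter, a mean of at least 5 FPKM, plain library totals, the replicate block, no variance trend, each library left out in turn and a wider basement membrane class. Chosen after seeing the data were limma voom on the recovered reads and leaving out replicate 3 of both IR groups.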

Additional observations from a re-analysis of the deposited data

How the results depend on the processing

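No result reversed its called direction. Col18a1, Col4a3 and Col4a4 in both genotypes, and Col4a5 and Col14a1 in cKO, kept their calls in all 20 alternatives, and Col5a2 and Col12a1 in cKO in all 19 that tested them. With no filter, 6 collagens were called lower in WT IR (3 in the reported fit) and 11 in cKO IR (5), since 43 were then tested. At a mean of at least 5 FPKM, 1 was called higher in cKO IR (3), since 13 were tested. The shares of all genes called with no filter or at 5 FPKM are not given here, so these counts cannot be set against them. Without both IR replicates 3, 8 were called lower in cKO IR (5) and 1 higher in cKO sham (0).

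With no filter the fibrillar median was 0.06 in WT IR (0.86), 0.04 in cKO sham against WT sham (0.62) and -0.11 for the difference between effects (-0.89), and the type IV median -0.42 in cKO IR (-0.67) and 0.20 between shams (0.33); more genes were then included. Without both IR replicates 3 the fibrillar median was 0.38 in WT IR and -0.33 in cKO IR (0.55), and that of the other classes -0.32 in cKO IR (0.29). Plain library totals gave a type IV median of -0.03 in WT IR (-0.17). The wider basement membrane class gave 0.28 in WT IR, 0.27 in cKO IR, 0.05 between the IR groups (-0.17) and 0.09 between shams. At a mean of at least 5 FPKM, 4 other-class genes had a median of 0.31 between shams (0.09). Where no cause is given, the cause was not tested.

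Leaving out 1 library at a time gave 2 to 5 collagens called higher in cKO IR (fewest without cKO IR 3 or cKO sham 1, most without cKO IR 1) and 1 to 7 in WT IR (fewest without WT IR 1, WT IR 3 or any WT sham library, most without cKO IR 3). The fibrillar median then ran from -0.33 to 1.03 in cKO IR, from 0.38 to 1.26 in WT IR and from -1.27 to -0.24 for the difference between effects. The type IV median ran from 0.24 to 0.41 between shams and from -0.49 to -0.23 for the difference between effects. That of the other classes ran from -0.32 to 0.70 in cKO IR and from -0.60 to 0.25 for the difference between effects.

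Replicate numbers did not pair the libraries in general. Same-numbered libraries of different groups correlated at -0.186 to 0.401 in their deviations, and other pairs at -0.325 to 0.264. The highest value, 0.401, was that of cKO IR 3 with WT IR 3, the libraries that stood apart for collagens. With the replicate block the same 3 and 5 collagens were called higher and lower in cKO IR and the same 3 and 3 in WT IR, and genes called for the difference between effects numbered 73 (113). That number was 68 without both IR replicates 3 and 41 to 150 with 1 library left out. Genes called between shams numbered 55 to 208 (142) and those between the IR groups 0 to 12 (0) with 1 library left out, and those between the IR groups numbered 9 with no filter.

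With 3 libraries per group, small differences cannot be seen, and genes with fewer than 3 reads in a library cannot be placed.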
